A study of Mus musculus with 4 samples.

Results

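The genes described here encode lysosomal proteins, subunits of the vacuolar ATPase (V-ATPase), the autophagy receptor Sqstm1 and the transcription factors Tfeb and Tfe3. They were chosen by function, as genes of the lysosome that answer to E-Box factors of the MiT/TFE family. Peaks were not a criterion of the choice, but earlier results of these peaks were known when the list was made. All 35 were found in the GENCODE M1 annotation of the mouse genome (mm9), which holds 22380 protein-coding genes among 37310 genes. Tfeb and Tfe3 were found under their older symbols Tcfeb and Tcfe3, and the other 33 under the names used here.

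The series holds 4 ChIP-Seq libraries from E14 mouse embryonic stem cells (ESCs), of which the peak lists of 2 were used, 1 library per ChIP. For Bio-Myc, chromatin came from a single stable clone that expressed Myc with an N-terminal biotin tag from the EF1α promoter together with the BirA biotin ligase, and it was captured on streptavidin beads. For Max, an anti-Max antibody was used on chromatin of parental wild-type E14 cells. The controls were a mock streptavidin ChIP, whose cells are BirA-ES cells in the methods and parental wild-type cells in the labels, and an IgG ChIP from parental wild-type cells. The Bio-Myc list holds 3962 peaks and the Max list 11570 peaks. The number of reads per library is unknown, there are no replicates, and the intervals given for shares of genes are 95% Wilson intervals that cover counting error only. Because the clone and the precipitation differ between the ChIPs along with the factor, a Max peak without a Bio-Myc peak cannot be told apart from a Bio-Myc signal below the limit of its own list. The lists hold no expression values, so neither the ESC identity of the cells nor the transcription of these genes was checked here.

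Lysosomes break down proteins, glycans and lipids with hydrolases that work at low pH, and the V-ATPase is the proton pump that acidifies them. TFEB, TFE3 and MITF are basic helix-loop-helix leucine zipper factors that switch on lysosomal genes through an E-Box with particular flanking bases, the CLEAR element. Myc and Max belong to the same structural class and bind as a dimer to the E-Box CACGTG, and Max also forms homodimers and dimers with the Mxd proteins, Mnt and Mga, so that a Max peak does not by itself name the partner.

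The sequences below are read from mm9 on the strand of the gene, 5′ to 3′, and the E-Box CACGTG is in capitals. An E-Box is said to have a T flank on a side when the base next to it, read on the strand that runs into the E-Box from that side, is T, so that TCACGTGA has a T flank on both sides. These are the E-Boxes under a Max promoter peak that had a T flank on both sides, shown because this octamer is the core of the CLEAR element.
Ctsa (chr2:164659266-164659295, plus strand, exon with UTR): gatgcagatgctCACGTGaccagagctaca
Ctsd (chr7:149573813-149573842, minus strand, exon with UTR): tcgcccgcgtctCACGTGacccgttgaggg
Atp6v0d1 (chr8:108089950-108089979, minus strand, upstream of the gene): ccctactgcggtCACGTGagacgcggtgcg
Lamp1 (chr8:13159209-13159238, plus strand, exon with UTR): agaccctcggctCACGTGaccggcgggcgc
Mcoln1 (chr8:3500462-3500491, plus strand, exon with UTR): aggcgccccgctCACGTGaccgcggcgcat
Ctsa (chr2:164659249-164659278, plus strand, exon with UTR): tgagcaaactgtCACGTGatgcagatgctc
Hexa (chr9:59387427-59387456, plus strand, upstream of the gene): ttccctcccgttCACGTGaccctccgattg
Atp6v1a (chr16:44139486-44139515, minus strand, intron): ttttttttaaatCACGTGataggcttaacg
For Lamp1, another such E-Box directly downstream of the printed window is left out.

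For the other members with an E-Box under a Max peak, and for those above whose E-Box nearest to the centre of the strongest Max peak was a different one, the nearest E-Box is shown. In these the T flank was on 1 side.
Lamp1 (chr8:13159088-13159117, plus strand, upstream of the gene): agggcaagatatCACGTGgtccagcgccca
Mcoln1 (chr8:3500436-3500465, plus strand, upstream of the gene): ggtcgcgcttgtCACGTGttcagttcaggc
Gaa (chr11:119129334-119129363, plus strand, exon with UTR): ccgcccacagacCACGTGacccacgctgcc
Hexa (chr9:59387476-59387505, plus strand, exon with UTR): ctgaccggggctCACGTGggctcagcctgc
Naglu (chr11:100931323-100931352, plus strand, exon with UTR): caaccttcaggtCACGTGgcccgaggtcgg
Sgsh (chr11:119216836-119216865, minus strand, upstream of the gene): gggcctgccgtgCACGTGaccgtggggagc
Man2b1 (chr8:87607539-87607568, plus strand, intron): aaaacaaggctgCACGTGatttttttcgcc
Atp6v0b (chr4:117559953-117559982, minus strand, upstream of the gene): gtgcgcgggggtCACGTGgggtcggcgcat
Atp6v1c1 (chr15:38591682-38591711, plus strand, exon with UTR): tgctccggctggCACGTGacttgctctggg
Atp6v1h (chr1:5073172-5073201, plus strand, upstream of the gene): cgtgcggctgctCACGTGccagacgctgct
In 3 genes the nearest E-Box had no T flank.
Ctsf (chr19:4855074-4855103, plus strand, upstream of the gene): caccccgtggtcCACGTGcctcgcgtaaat
Glb1 (chr9:114309910-114309939, plus strand, upstream of the gene): tgaatgttagacCACGTGctagggagagtt
Atp6v1a (chr16:44139999-44140028, minus strand, upstream of the gene): gccgctcctccaCACGTGcactcgggacac

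Max peaks overlapped the region within 1 kb of a transcription start site (TSS) of 23 of the 35 genes, which is 65.7% (49.2 to 79.2%), against a background of 34.8% of all protein-coding genes. Bio-Myc peaks lay in the same window of 6 of 35 genes, 17.1% (8.10 to 32.7%), against 14.6% of protein-coding genes. All 6 also had a Max peak, so that joint binding was 17.1% here and 12.7% over protein-coding genes. A Max peak alone was found at 17 genes, 48.6% (33.0 to 64.4%), where the background was 22.1%. A Bio-Myc peak alone was found at 0 of 35 genes, which by the Wilson interval allows a share of up to 9.89%, and the background was 1.98%. The remaining 12 genes had neither peak. Max binding was therefore counted at a larger share of these genes than of protein-coding genes, with an interval that lies above the background, while the interval for joint binding includes its background. Among the 23 Max-bound genes, 26.1% (12.5 to 46.5%) had a Bio-Myc peak too, and among the 7788 Max-bound protein-coding genes 36.4% (35.3 to 37.4%) did, a value inside the interval of the members. Genes are not replicates, and the list was put together with earlier results of these peaks known, so no test of these shares was made.

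**Figure D1:**
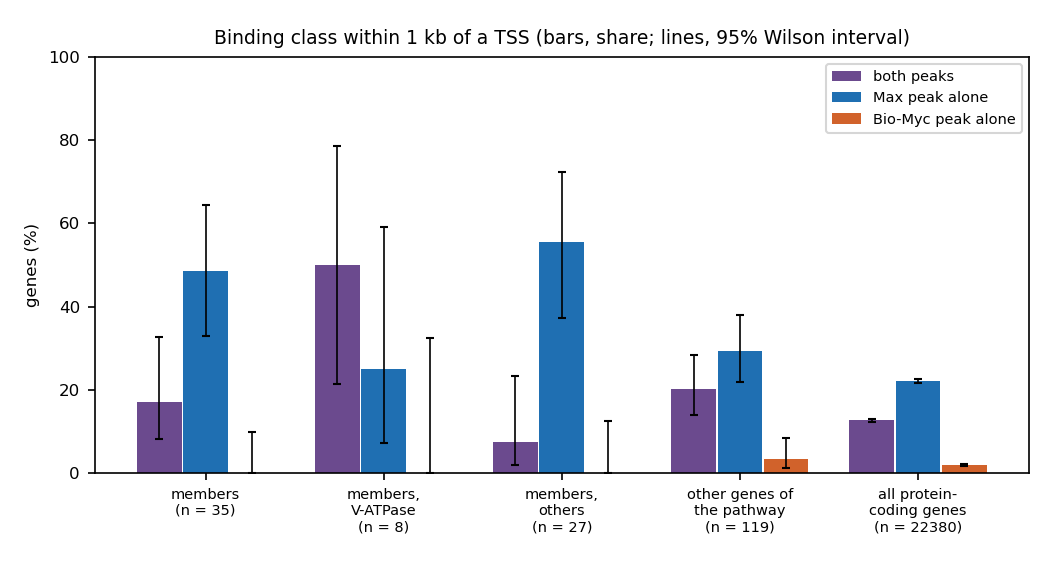
Share of genes (%, bars side by side) with both peaks, a Max peak alone or a Bio-Myc peak alone within 1 kb of a TSS. The sets are the 35 members, their V-ATPase and other parts, the other genes of the pathway and all protein-coding genes. Lines on the bars are Wilson intervals. A Max peak alone was the most frequent class among the members (48.6%), while neither peak, which is not drawn, was the most frequent among protein-coding genes (63.2%).

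Peak strength is given below by the score of the peak caller, which is -10 times the log10 of its p-value and starts at 80, the authors' limit. Scores rank peaks within a list and were not compared between the lists. The median of all peaks was 160 in the Max list and 129 in the Bio-Myc list. Where a gene had several promoter peaks, the strongest is meant.

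Among the 4 subunits of V1, the cytosolic sector that hydrolyses ATP, all had a Max peak and 3 had a Bio-Myc peak. Atp6v1a, the catalytic A subunit, had a Max peak of score 271 and the strongest Bio-Myc peak of the members, 356, which ranks 315 of 3962 in its list. Atp6v1d, part of the central stalk, scored 333 for Max and 290 for Bio-Myc. Atp6v1h, a regulatory subunit, scored 244 for Max but only 89.0 for Bio-Myc, close to the limit of the list. Atp6v1c1, the C subunit, had a Max peak of 277 and no Bio-Myc peak nearer than 142 kb. The Max scores of the 4 genes thus lay in a narrow range, and the joint genes were not set apart from Atp6v1c1 by it.

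In V0, the membrane sector through which protons pass, the 3 genes fell into 3 classes. Atp6v0d1, the d subunit between both sectors, had the highest Max score of the members, 704, which ranks 443 of 11570, and a Bio-Myc peak of 84.1. Its Bio-Myc peak ranks 3729 of 3962, so that the strongest Max peak among the members stood beside a Bio-Myc peak near the limit. Atp6v0b, a proteolipid subunit, had a Max peak of 132 alone. Atp6v0c, the main proteolipid of the rotor ring, had neither, and the nearest Max peak was 35.5 kb away. The accessory subunit Atp6ap1 also had neither, with the nearest Max peak at 9.22 kb. Joint binding was thus counted at 4 of the 8 V-ATPase genes (interval 21.5 to 78.5%) and at 2 of the 27 other members (7.41%, 2.06 to 23.4%), against 12.7% of protein-coding genes. The intervals of these shares overlap narrowly, and with peaks of a score of 100 or more the V-ATPase count is 2 of 8, without Atp6v0d1 and Atp6v1h. Over 25 V-ATPase subunits and accessory proteins, the members included and the others listed by function, 6 were joint, 5 had Max alone and 14 had neither.

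The joint peaks of Atp6v1a and Atp6v1d each covered a TSS of another gene. The TSSs of Atp6v1a and Naa50, an N-terminal acetyltransferase, are 125 bp apart, and those of Atp6v1d and Eif2s1, a translation initiation factor subunit, 181 bp apart, in opposite directions. These were also the highest Bio-Myc scores among the members, and to which of the paired genes the peaks belong was not tested. Peaks of Atp6v0d1 and Atp6v1h covered no TSS of another protein-coding gene.

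Glycan and lipid hydrolases, the largest role, had Max peaks at 9 of 10 genes (59.6 to 98.2%), against 34.8% of protein-coding genes. Of these, 8 had Max alone (49.0 to 94.3% of the 10), against 22.1%. In smaller roles all genes had a Max peak, 4 of 4 V1 subunits and 2 of 2 cofactors or lipid carriers. Hexa, the alpha subunit of beta-hexosaminidase, had the highest Max score among the Max-alone members, 472. Asah1, acid ceramidase, followed with 455 and Gaa, the acid alpha-glucosidase that degrades glycogen, with 431. Naglu and Sgsh, which act on heparan sulfate, scored 266 and 167, and Gusb, beta-glucuronidase, scored 235. Man2b1, an alpha-mannosidase, had a peak of 153, below the median of the Max list, and Neu1, the lysosomal sialidase, one of 85.8 near the limit. The single joint gene of this role was Glb1, acid beta-galactosidase, with 280 for Max and 192 for Bio-Myc. Gla, alpha-galactosidase A on chromosome X, was the single one with neither peak, and its nearest Max peak was 125 kb away. Scores of the 8 Max-alone hydrolases thus reached from 85.8 to 472 and enclosed that of Glb1.

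Among the 5 proteases, Ctsd, the aspartic protease cathepsin D, was joint with 210 for Max and 84.1 for Bio-Myc. Ctsf, a cysteine cathepsin, had a Max peak of nearly the same score, 209, and no Bio-Myc peak in the window. Ctsa, a carboxypeptidase that also protects Glb1 and Neu1 in a complex, had Max peaks of 174 and 138 at separate TSSs. The genes of this complex were thus in different classes, Glb1 joint, and Ctsa and Neu1 with Max alone. Ctsb, a cysteine cathepsin, and Tpp1, a tripeptidyl peptidase, had neither, with the nearest Max peaks at 41.7 kb and 7.46 kb. Both genes for helpers of lipid breakdown had Max alone: Psap, the precursor of the saposins, scored 372, and Npc2, a soluble cholesterol carrier, scored 120.

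Membrane proteins were the role with the highest number of unbound genes, 5 of 7 (71.4%, 35.9 to 91.8%). That interval includes the 63.2% of protein-coding genes with neither peak. Lamp1, a main glycoprotein of the lysosomal membrane, had a Max peak of 321, and its relative Lamp2 on chromosome X had neither, with the nearest Max peak 321 kb away. Mcoln1, a cation channel that releases calcium from lysosomes, had a Max peak of 348 over its first TSS and a weaker peak of 160 near a TSS at the end of the gene. Npc1, which exports cholesterol together with Npc2, Cln3, the Batten disease protein, Scarb2, the receptor that carries glucocerebrosidase to lysosomes, and Ctns, the cystine exporter, had no peak of either list. Their nearest Max peaks lay between 11.5 kb (Ctns) and 69.9 kb (Scarb2) from a TSS.

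Sqstm1, which delivers ubiquitinated cargo to autophagosomes, had a Max peak of 86.1 alone. It began 191 bp downstream of the nearest TSS, and Sqstm1 was the exception among the 23 Max-bound genes, of which 22 had a Max peak that covered a TSS. That count was not made over Max-bound protein-coding genes. Tfeb and Tfe3 themselves had neither peak within 1 kb of any of their annotated TSSs, and their nearest Max peaks were 33.4 kb and 121 kb away.

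**Figure D2:**
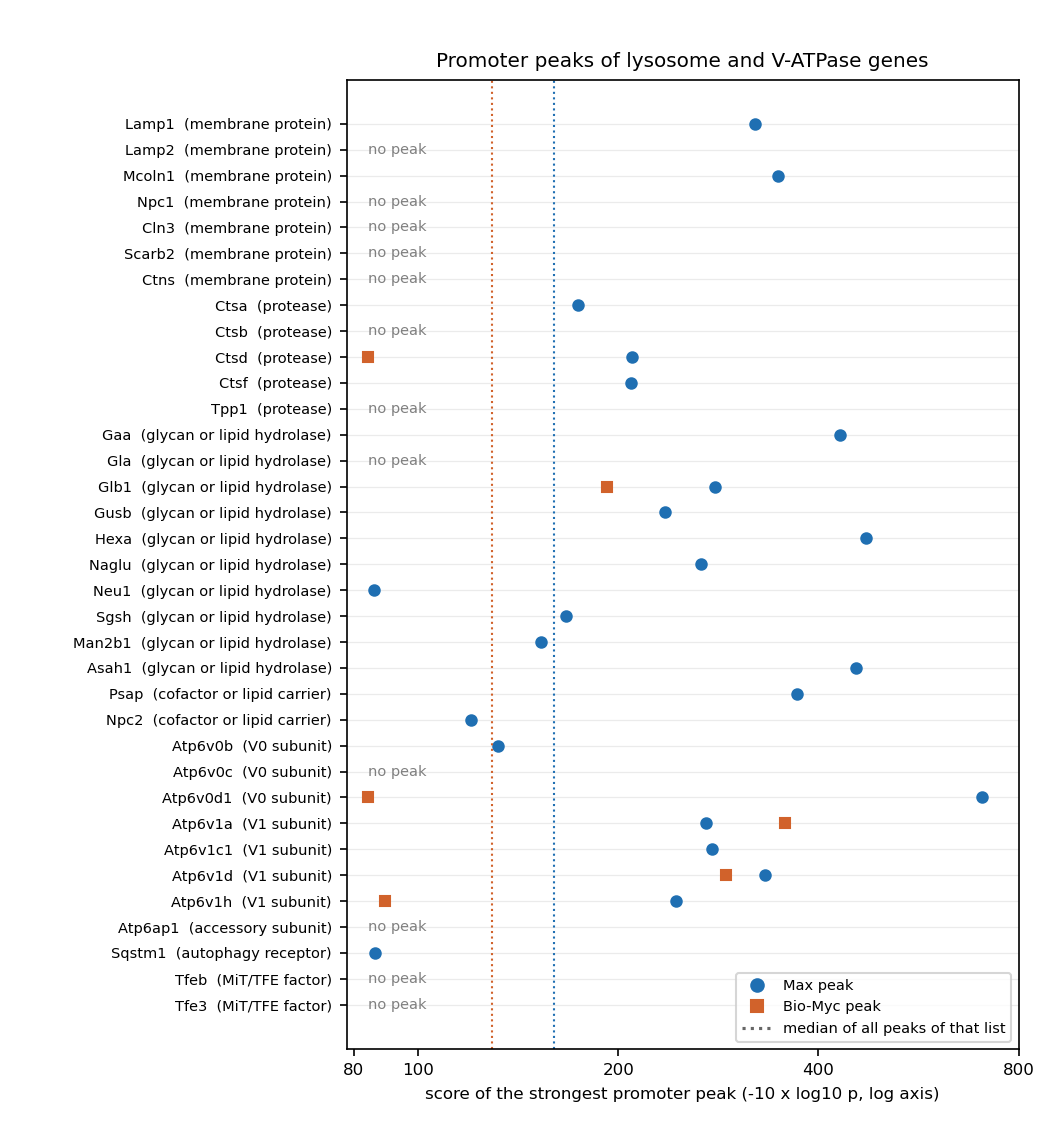
Score of the strongest Max (circles) and Bio-Myc (squares) promoter peak of each of the 35 members on a log axis, with the median of all peaks of each list as a dotted line; genes marked "no peak" had none within 1 kb of a TSS. The Max scores of the 6 joint genes (210 to 704) lie within or above the range of the 17 Max-alone genes (85.8 to 472), and 3 of the 6 Bio-Myc scores are below 90, the others being 192, 290 and 356.

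The Max score was above the median of its list in 18 of the 23 Max-bound genes. That median is over all Max peaks, also those outside promoters, and the same count was not made over protein-coding genes. The median Max score was 276 over the 6 joint genes (range 210 to 704) and 235 over the 17 Max-alone genes (range 85.8 to 472). This order turned with as many Max peaks as Bio-Myc peaks, to 280 and 348, and within 5 kb of a TSS, to 244 and 272. Over all protein-coding genes the medians were 282 for joint and 161 for Max-alone genes. The joint members thus had a typical Max score, whereas the Max-alone members had a higher median than Max-alone genes in general. Without chromosome 8 the median of the Max-alone members was 209, and that of Max-alone genes in general was not computed without it. For Bio-Myc, the median over the 6 joint members was 141, against 152 over all joint protein-coding genes, and 3 of the 6 scored above the median of the Bio-Myc list.

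Read by strength of the Max peak, the share of joint genes climbed steadily in the background, and the counts of the members were small in each range. With a Max score from 80 to below 150, 0 of 4 members were joint, against 17.3% of protein-coding genes (470 of 2722). From 150 to below 300, 4 of 11 members were joint, 36.4% (15.2 to 64.6%), against 36.1% (1024 of 2833). At 300 or more, 2 of 8 members were joint, 25.0% (7.15 to 59.1%), against 59.9% (57.9 to 61.9%; 1338 of 2233), which is just above the interval of the members. The 6 members with a strong Max peak and no Bio-Myc peak in the promoter were Hexa, Asah1, Gaa, Psap, Mcoln1 and Lamp1, and the 2 joint ones were Atp6v0d1 and Atp6v1d. Of these 8 genes, 4 are on chromosome 8, on which the Max list has an excess of peaks. Without that chromosome, 1 of 4 members was joint, against 62.6% of protein-coding genes, with an interval for the members of 4.56 to 69.9% that includes that share.

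**Figure D3:**
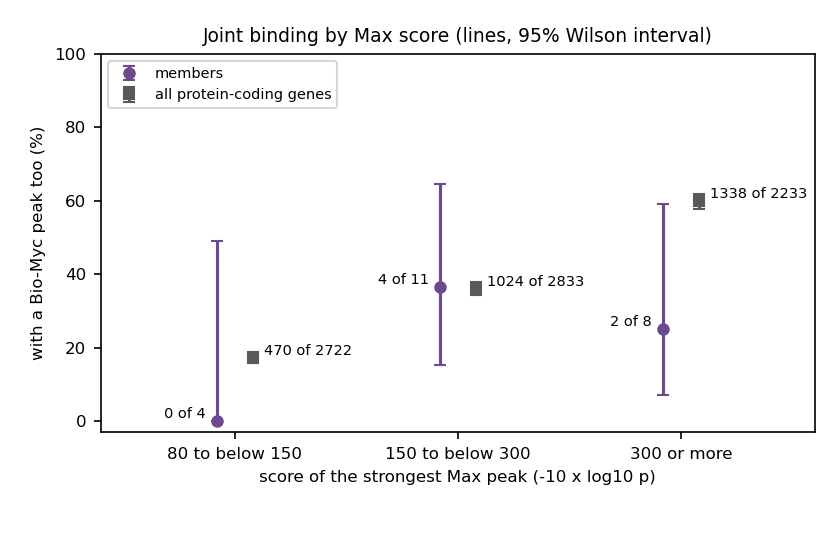
Share of Max-bound genes that also had a Bio-Myc promoter peak (%, with 95% Wilson intervals as bars) by score of the strongest Max promoter peak, for the members (circles) and all protein-coding genes (squares). From the lowest to the highest scores the background goes from 17.3% to 59.9%, and the members are at 0 of 4, 4 of 11 and 2 of 8.

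In all 6 joint genes the Bio-Myc peak covered a TSS and overlapped the Max peak. The same count was not made over joint protein-coding genes. Both peaks had to lie within 1 kb of a TSS, so it does not set the members apart. The overlap was 600 bp in Glb1, 716 bp in Ctsd, 815 bp in Atp6v1h, 945 bp in Atp6v0d1, 1145 bp in Atp6v1d and 1316 bp in Atp6v1a. The centres of the peaks were 2 bp apart in Atp6v1h and between 155 bp (Atp6v1a) and 377 bp (Atp6v0d1) apart in the others. In Atp6v0d1 and Atp6v1h the Bio-Myc peak lay wholly within the Max peak, and in Atp6v1a the Max peak lay wholly within the wider Bio-Myc peak.

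For 13 of the 17 Max-alone genes, no Bio-Myc peak lay within 10 kb of a TSS. The same count was not made over Max-alone protein-coding genes, so it does not set the members apart. In the 4 others a peak was near but outside the window. For Man2b1 it ended 1861 bp upstream, scored 133 and covered a TSS of BC056474. For Atp6v0b it lay 2407 bp downstream, scored 108 and covered a TSS of B4galt2. The peak near Ctsa, 8109 bp upstream with a score of 104, covered a TSS of Zswim1. Near Ctsf a peak of 88.8 lay 4953 bp upstream and covered no annotated TSS. So in 3 of these 4 genes the nearby Bio-Myc peak was at the promoter of a neighbour. Max peaks of Mcoln1, Ctsa, Sgsh and Npc2 also covered a TSS of another protein-coding gene, Pnpla6, Neurl2, Slc26a11 and Isca2, at 822, 351, 21 and 158 bp between the closest TSSs. For Mcoln1 this was the weaker peak of 160 at the end of the gene, not the peak of 348.

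Under the Max promoter peaks, CACGTG was found in 16 of the 23 Max-bound genes, 69.6% (49.1 to 84.4%), against 38.6% of the Max-bound protein-coding genes. It was present in 5 of the 6 joint genes, the exception being Atp6v1d, and its interval of 43.6 to 97.0% includes the background of joint genes, 52.9%. Of the Max-alone genes 11 of 17 held it, 64.7% (41.3 to 82.7%), against 30.5%. The 6 Max-alone genes without CACGTG were Gusb, Neu1, Asah1, Psap, Npc2 and Sqstm1, among them Asah1 and Psap with strong Max peaks. In the central 200 bp of the peaks the count was 4 of 6 joint genes (30.0 to 90.3%), against 23.2%, and 9 of 17 Max-alone genes (31.0 to 73.8%), against 15.1%. Under whole peaks the interval of the Max-alone members thus lies above its background, and that of the joint members does not. In the central 200 bp both intervals lie above their backgrounds. The genes were chosen as ones that answer to E-Box factors, so this frequency is not independent of the choice.

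Palindromic TCACGTGA, which contains CACGTG and was searched on both strands, lay under a Max peak of 7 of the 23 genes, 30.4% (15.6 to 50.9%), against 3.47% of the 7788 Max-bound protein-coding genes. These were the joint genes Ctsd, Atp6v0d1 and Atp6v1a, whose background was 4.56%, and the Max-alone genes Lamp1, Mcoln1, Ctsa and Hexa, whose background was 2.85%. Some of the genes are known for this motif, so its frequency is likewise not independent of the choice. Of the members with this octamer, 3 of 7 were joint, of those with CACGTG but without it 2 of 9, and of those with no E-Box 1 of 7. In the background these shares were 47.8%, 49.9% and 27.9%, so the octamer did not come with a higher share of joint genes than other E-Boxes. The central 200 bp held TCACGTGA in 1 of 6 joint and 2 of 17 Max-alone members, against 1.77% and 1.35%.

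Counted by E-Box, the Max peaks of the members held 31 copies of CACGTG, of which 9 had a T flank on both sides, 19 on 1 side and 3 on none. In the joint genes it was 3, 5 and 2 of 10 E-Boxes, and in the Max-alone genes 6, 14 and 1 of 21. Over protein-coding genes, by contrast, E-Boxes without a T flank were the majority, 66.3% of 1887 in joint and 58.9% of 1720 in Max-alone genes. The E-Boxes with no T flank among the members were that of Ctsf, 1 of the 2 in Glb1 and 1 of the 3 in Atp6v1a, printed above. Lamp1 alone gave 6 of the 21 E-Boxes of the Max-alone genes, and E-Boxes of the same peak are not independent. The genes were chosen as ones that answer to MiT/TFE factors, whose CLEAR element has such flanks. The contrast with the background is thus not independent of the choice.

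**Figure D4:**
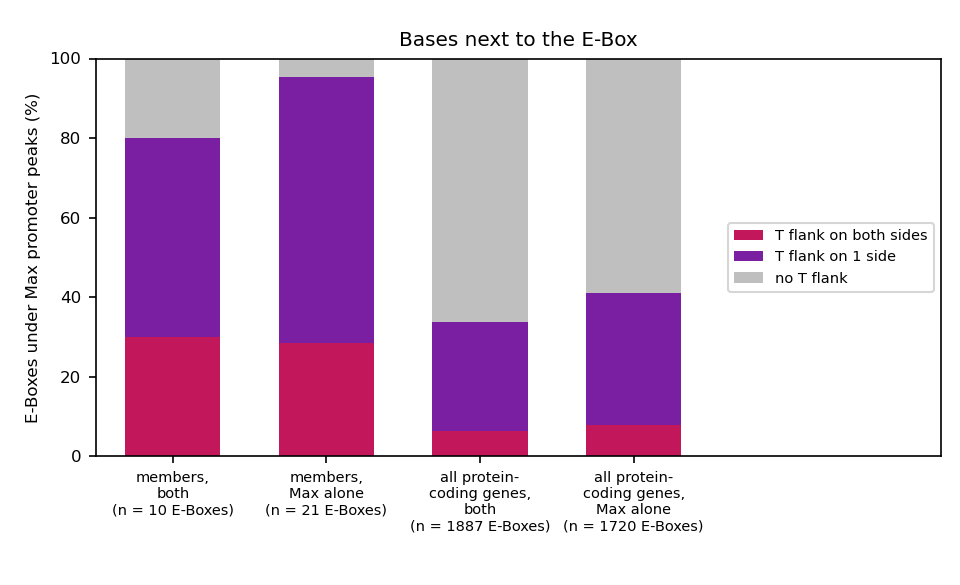
Share of E-Boxes under Max promoter peaks (%, stacked to 100) with a T flank on both sides, on 1 side or on none, for joint and Max-alone members and for all protein-coding genes in the same classes. Without a T flank were 2 of 10 and 1 of 21 E-Boxes in the members, against 66.3% and 58.9% in the background. This contrast is not independent of the choice of the genes.

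Several E-Boxes in the same promoter were common. At least 2 lay under the Max peaks of 10 of the 23 genes, 43.5% (25.6 to 63.2%), against 779 of the 7788 Max-bound protein-coding genes. In joint genes it was 4 of 6, Ctsd, Glb1, Atp6v1a and Atp6v1h, against 17.3%, and in Max-alone genes 6 of 17, Lamp1, Mcoln1, Ctsa, Gaa, Hexa and Atp6v0b, against 5.83%. These shares are also not independent of the choice of the genes. The E-Boxes were close to the TSS, 28 of 31 within 250 bp of one. Their place in the peak was central for 18 of 31, which lay within 100 bp of the centre of the strongest Max peak. Of the 16 genes, 13 had an E-Box within 100 bp of that centre, and the median distance of the nearest was 27.0 bp. The exceptions were Atp6v0d1, where it was 305 bp away in a peak of 1787 bp, Ctsf at 166 bp and Naglu at 168 bp. Distances to the TSS and to the centre were not counted over protein-coding genes. Only peaks within 1 kb of a TSS were searched, so these distances do not set the members apart.

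**Figure D5:**
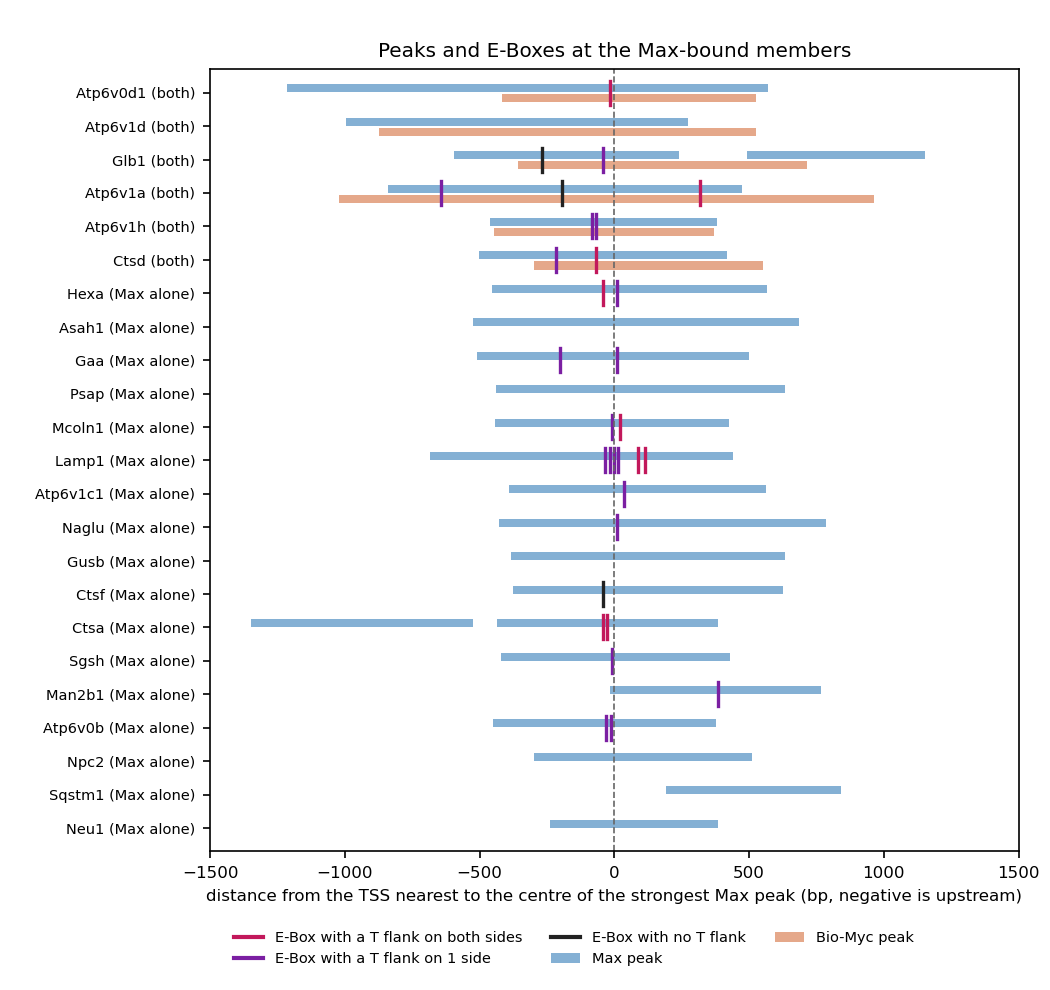
Max peaks (blue), Bio-Myc peaks (orange) and E-Boxes (vertical lines, coloured by T flanks) of the 23 Max-bound members, drawn to scale in bp from the TSS nearest to the centre of the strongest Max peak, joint genes at the top. The peaks overlap the TSS in all genes but Sqstm1, and 28 of the 31 E-Boxes lie within 250 bp of an annotated TSS, not in every case the one at 0. Neither count was made over protein-coding genes.

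An E-Box near the TSS was also present in genes without a peak. Over all 35 genes, 24 held CACGTG within 1 kb of a TSS (68.6%, against 39.0% of protein-coding genes) and 10 held TCACGTGA (28.6%, against 3.73%). Neither share is independent of the choice of the genes. Among the 12 genes with neither peak, 4 held CACGTG and 3 held TCACGTGA, namely Cln3, Ctsb and Gla. Their sequences are shown because they have the same octamer as the bound genes.
Cln3 (chr7:133726854-133726883, minus strand, exon with UTR): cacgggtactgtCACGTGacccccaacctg
Ctsb (chr14:63741267-63741296, plus strand, upstream of the gene): gcggtcaagcatCACGTGacgaatcagccc
Gla (chrX:131135721-131135750, minus strand, upstream of the gene): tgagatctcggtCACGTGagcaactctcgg
Gla (chrX:131135754-131135783, minus strand, upstream of the gene): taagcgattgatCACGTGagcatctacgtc
In Ctsb the middle of the E-Box is 20 bp upstream of the TSS and in Gla it is 72 and 105 bp upstream, and the nearest Max peaks were 41.7 kb and 125 kb away. Cln3 had a Bio-Myc peak of 112 at 6204 bp, which covered a TSS of Eif3c. The CpG content, as the ratio of observed to expected CpG within 500 bp of the TSS, had a median of 0.66 in the members with neither peak, 0.68 in the Max-alone and 0.78 in the joint members. In protein-coding genes it was 0.32 without a peak, 0.73 with Max alone and 0.79 with both, so the unbound members had more CpG than unbound genes in general.

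The place in the genome moved with the classes. All 5 members on chromosome 8, Lamp1, Mcoln1, Man2b1, Asah1 and Atp6v0d1, had a Max peak, but so did 60.6% of the 1082 protein-coding genes of that chromosome, which holds 1357 of the 11570 Max peaks. Without chromosome 8, 18 of 30 members had a Max peak, 60.0% against 33.5%. None of the 4 members on chromosome X, Lamp2, Gla, Atp6ap1 and Tfe3, had a peak, and on that chromosome 4.40% of 932 protein-coding genes had a Max peak. Without both chromosomes it was 18 of 26 members, 69.2% against 34.8%. The part of the chromosomes in the classes of single genes was not tested.

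A further 119 genes of the lysosome, its acidification, nutrient sensing and autophagy were listed by function and read in the same way. Of these, 24 were joint (20.2%), 35 had Max alone (29.4%), 4 had Bio-Myc alone (3.36%) and 56 had neither (47.1%), against 12.7%, 22.1%, 1.98% and 63.2% of protein-coding genes. Among 34 further hydrolases and cofactors, 4 were joint (11.8%, 4.67 to 26.6%) and 13 had Max alone (38.2%), among them Dnase2a, the acid DNase, with a Max score of 924 on chromosome 8 and Arsb, arylsulfatase B, with 429. Of 17 genes for nutrient sensing at the lysosomal surface, 8 were joint (47.1%, 26.2 to 69.0%, against a background of 12.7%), 3 had Max alone and 2 Bio-Myc alone. The joint ones included Rragc, a Rag GTPase that recruits mTORC1, with 499 for Max and 120 for Bio-Myc, and Rheb, the GTPase that activates mTORC1, with 571 and 214. Mtor, the kinase itself, and Lamtor4, part of the Rag anchor, had a Bio-Myc peak alone, with 109 and 139. Of the Max-bound genes, 8 of 11 for nutrient sensing were joint (43.4 to 90.3%), against 36.4% of protein-coding genes. It was 1 of 9 hydrolase members (1.99 to 43.5%) and 4 of 17 further hydrolases and cofactors (9.56 to 47.3%). In the other roles of this list it was 3 of 6 membrane proteins, 2 of 7 sorting genes, 2 of 5 V-ATPase subunits and 5 of 12 autophagy genes. The 1 Max-bound MiT/TFE factor was not joint. Genes are not replicates, and this list too was made with earlier results of these peaks known. No test was made between these small counts. CACGTG lay under a Max peak of 33 of the 59 Max-bound genes of this list and TCACGTGA in 10 of 59, 16.9%, between the members and the background.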

How the data were processed

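The authors mapped the reads of each ChIP-Seq to mm9 with Bowtie 0.12.7 after CASAVA 1.8, kept unique hits with up to 2 mismatches, and called peaks with MACS 1.4.1 against the mock or IgG ChIP at a p-value of 1e-08. The deposited lists give the position and the score of each peak, which is the MACS score, -10 times the log10 of the p-value. A fixed limit makes the number of peaks depend on depth, which is unknown, and unique mapping leaves out repeats. Peaks were set beside all TSSs of GENCODE M1 (NCBIM37, the same assembly as mm9), and a gene was bound when a peak overlapped the 1 kb around any TSS. Of 2 records of Glb1, the longest was used. Motifs were searched on both strands under whole peaks. Every member was named with its class and score, and for sequences the E-Box nearest to the centre of the strongest Max peak was taken; the other TCACGTGA sites were added after their values were seen. The members and the list of further genes were chosen with earlier results of these data known. Alternatives were score limits, windows, TSS sets, equal list sizes, overlap of the peaks, chromosomes left out and parts of the peaks. Coordinates are 1-based. The counts were made in Python 3.11.15 (pysam 0.24.0 for sequences, scipy 1.17.1 for intervals, numpy 2.4.6 for arrays, matplotlib 3.10.9 for plots), and on simulated data 8 of 8 steps returned the known answer. The control libraries and the other data of the study were not analysed here.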

Additional observations from a re-analysis of the deposited data

How the results depend on the processing

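Of 122 values under 14 alternatives, 107 stayed within 1.5 times the value reported and 15 did not. With peaks of both lists at a score of 100 or more, or of 150 or more, the joint members fell from 6 to 3 (Glb1, Atp6v1a and Atp6v1d), those with CACGTG to 2 and those with TCACGTGA to 1. With as many Max peaks as Bio-Myc peaks, 9 members had Max alone, 1 Bio-Myc alone and 20 neither, and CACGTG lay under the Max peak of 6 Max-alone members. Within 5 kb of a TSS, 9 members were joint, 8 of them with CACGTG. Without chromosome 8, 2 Max-alone members held TCACGTGA. In the central 200 bp of the peaks TCACGTGA was counted in 1 joint and 2 Max-alone members, and in the central 500 bp in 1 joint member. The median Max score was lower in joint than in Max-alone members with lists of equal size (280 and 348) and within 5 kb (244 and 272), the reverse of the order reported, and the cause was not tested. As reported, 3 of the joint calls rest on Bio-Myc scores below 90. No library can be left out and no paired analysis was possible because each ChIP has 1 library.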
